A study of Homo sapiens with 4 samples.

Results

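The genes described here encode the proteins of the cytosolic ribosome, divided into the large and the small subunit. Membership followed a rule on the symbol: RPL or RPS followed by a number, with or without a closing A, X, L or L1. RPLP0 to RPLP2 and RPSA were also taken. The set as such was chosen with earlier results of these data known. Ribosomal S6 kinases and pseudogenes were left out. The rule took 80 of 15046 genes, 49 of the large and 31 of the small subunit, in 88 of 16328 transcript rows. Of 77 core names checked, 74 had a row, and the other 6 genes were the paralogs RPL3L, RPL7L1, RPL10L, RPL26L1, RPL39L and RPS27L. RPL10, RPL17 and RPS26 were not analysed here.

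Jurkat is an established human leukemia line of the T lymphocyte lineage, grown in RPMI-1640 medium with fetal bovine serum. Of the 4 libraries, 1 was labelled Control, which the series' design text describes as a control shRNA, and 3 were labelled SLEAR shRNA-1, -2 and -3. Per the labels' protocols, short hairpin RNAs targeting SLEAR were cloned in the lentiviral vector pGreenPuro and brought into the cells with polybrene at 2 µg/ml. Polyadenylated RNA was read by MAPS, a multiplexed method that sequences the stretch of each transcript beside its poly(A) tail. The labels do not say which hairpin the Control cells carried, whether the numbers 1 to 3 are different hairpins or repeats of 1, or whether separate cultures were used. The spread behind each SE and p-value of the fit to all 4 libraries comes from the 3 SLEAR shRNA libraries alone. The fit assumes that Control varies like them, which 1 library cannot show. A p-value here thus measures no more than a distance from Control against that spread, and the spread may be technical. SLEAR itself was not analysed here, so its knockdown was not checked.

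Each value is in RPM, reads normalised to library size, not divided by transcript length. Library sizes estimated from the step between the lowest values were 8384889 reads for Control, 7048620 and 7524254 for SLEAR shRNA-1 and -2, and 4814166 for SLEAR shRNA-3. A count of 3 reads corresponded to 0.358, 0.426, 0.399 and 0.623 RPM in that order, and limits and intervals of this kind cover counting error only. SLEAR shRNA-3 listed 6941 rows at 0, against 2314 to 2984 in the other libraries. Most T lineage markers were present: 12 of 13 reached 1 RPM in at least 1 library, among them CD3D, CD3E and LCK. The exception was CD3G, at 0.24 RPM in Control and 0 in the SLEAR shRNA libraries, and CD28 was at 0 in SLEAR shRNA-3. The sum of the T lineage markers ran from 4051 to 4546 RPM. Sums of B cell markers reached 23.1 RPM, and those of myeloid, fibroblast and epithelial markers did not exceed 3.19 RPM in any library. Only 3 of 5 B cell, 5 of 6 myeloid, 1 of 5 fibroblast and 2 of 5 epithelial or kidney markers had a row, so these sums cover part of each list.

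A ribosome joins a small subunit, which reads the messenger RNA, to a large subunit, which forms the peptide bond. Nearly all of its core proteins are needed in equal number, and cells keep the many genes in step in large part by translating their messenger RNAs together. Most of those messengers begin with a cytosine followed by a run of pyrimidines, the terminal oligopyrimidine (TOP) tract, through which the mTOR pathway and LARP1 control their translation. A dividing leukemia cell such as Jurkat makes ribosomes at a high rate. Mutations in RPL5, RPL10 and RPL22 recur in T cell acute lymphoblastic leukemia, and loss of 1 copy of many other members, RPS19 first among them, causes Diamond-Blackfan anemia.

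The start of the gene shows what the members share at sequence level that the symbol rule did not use. RefSeq promoter windows on GRCh38.p14 were found for 63 of the 80 genes, with 77 start sites. An unbroken run of at least 8 C or T letters on the gene's sense strand, within the 15 bases before and the 15 bases from the start, lay in 51 of the 77 windows (66.2%), against 4797 of 35116 windows (13.7%) over all RefSeq promoters. The same search on the opposite strand, as a run of A or G in the sense letters, found 2.60% of the member windows and 11.2% of all windows. Without the paralogs, 67.4% of the windows of the large and 76.9% of those of the small subunit held such a run. The mitochondrial ribosomal proteins, which serve the separate ribosome of that organelle, held it in 11.1% of their windows. Not every member described below had one, also apart from the paralogs. The longest run was 7 letters in RPL36, RPS15 and RPS3A, and 6 in RPL12 and RPL32. It was 5 in RPL3, RPL6, RPL15, RPL27 and RPS4X, and 4 in RPS29. The following windows show the run in 6 described members, RPL36 as a member without it, and 2 pairs of a parent and a paralog. Each reads 5′ to 3′ on the gene's strand, with the start site at the sixteenth base and the pyrimidine run in capitals.
RPL13A: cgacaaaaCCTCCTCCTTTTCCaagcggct
RPL36: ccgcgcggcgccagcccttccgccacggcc
RPS23: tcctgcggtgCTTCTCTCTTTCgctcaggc
RPS18: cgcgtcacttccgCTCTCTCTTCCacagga
RPS24: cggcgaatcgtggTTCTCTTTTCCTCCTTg
RPL37A: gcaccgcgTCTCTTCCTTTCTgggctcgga
RPS19: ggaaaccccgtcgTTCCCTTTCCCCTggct
RPL26: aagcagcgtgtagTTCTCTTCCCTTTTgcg
RPL26L1: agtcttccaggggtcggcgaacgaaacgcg
RPS27: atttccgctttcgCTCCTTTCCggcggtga
RPS27L: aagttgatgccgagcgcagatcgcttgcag
On GRCh38.p14 the windows lie at chr19:49487593-49487622 (plus strand) for RPL13A, chr19:5690280-5690309 (plus) for RPL36, chr5:82278340-82278369 (minus) for RPS23, chr6:33272060-33272089 (plus) for RPS18 and chr10:78033848-78033877 (plus) for RPS24. Those of RPL37A and RPS19 lie at chr2:216498829-216498858 (plus) and chr19:41860240-41860269 (plus, the first of 2 starts). The parent RPL26 is at chr17:8383179-8383208 (minus) and its paralog RPL26L1 at chr5:172958714-172958743 (plus, the first of 2 starts). RPS27 is at chr1:153990747-153990776 (plus), and RPS27L at chr15:63157463-63157492 (minus). Each window covers the end of the promoter and the first bases of the first exon. None of the 5 windows of the paralogs with an entry held a run of that length. A run is a description of letters and not a measured TOP tract.

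**Figure D1:**
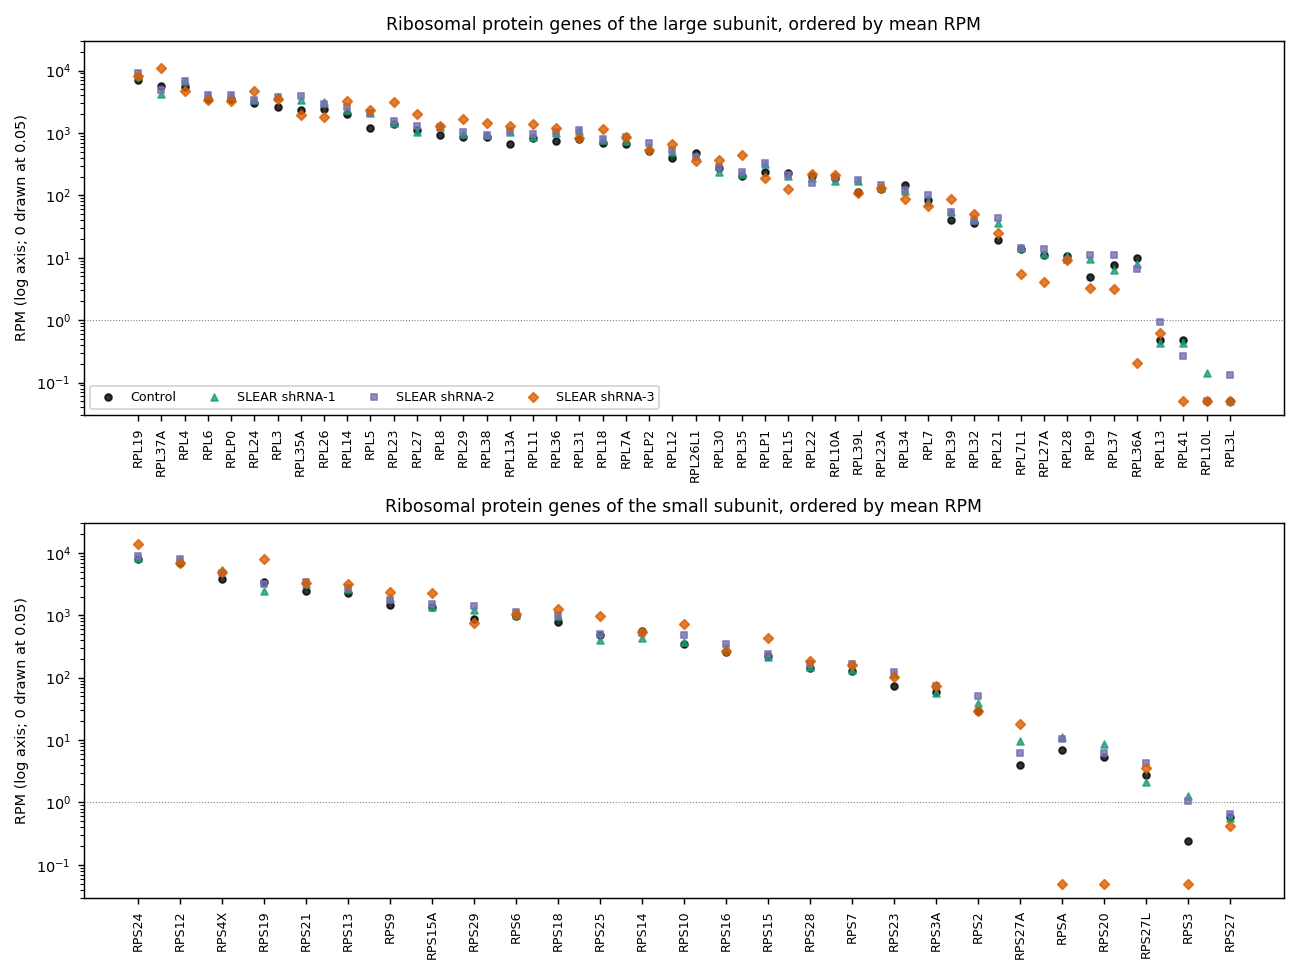
RPM of the named large subunit genes (top) and small subunit genes (bottom) on a log axis, with 1 point per library and rows of a gene summed. Levels span from 13778 RPM to 0, and the 4 libraries lie close together for most genes above 100 RPM, with SLEAR shRNA-3 the most displaced.

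The deposited levels were far from equal. Over the 4 libraries 18 large subunit genes averaged at least 1000 RPM, 17 lay between 100 and 1000 RPM, 10 between 1 and 100 RPM and 4 under 1 RPM. For the small subunit these numbers were 14, 9, 6 and 2. Because the method reads 1 end per transcript, RPM was not scaled by length, and the order of genes below is an order of reads per row. The plot of levels by gene gives every library side by side.

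RPL19, which lies near the exit of the large subunit's peptide tunnel, stood highest there: Control had 7073 RPM, and SLEAR shRNA-1, -2 and -3 had 8306, 8956 and 8159 RPM. RPL4, whose loop lines the peptide exit tunnel, had 5471 RPM in Control, 6697 and 6700.3 RPM with SLEAR shRNA-1 and -2, and 4745 RPM with SLEAR shRNA-3. RPL6 followed with 3491 RPM in Control and, with SLEAR shRNA, 3984, 4089 and 3403 RPM. For RPL4 and RPL6 the groups overlapped, since SLEAR shRNA-3 lay below Control. In the small subunit RPS24 led: Control had 7908 RPM, and the SLEAR shRNA libraries 8333, 8794 and 13778 RPM. RPS12, a protein of the small subunit's head, had 6954 RPM in Control and 7651, 8123 and 6966 RPM with SLEAR shRNA. RPS4X, the X-linked copy of RPS4, had 3786 RPM in Control and 5382, 4699 and 4992 RPM with SLEAR shRNA. For RPS24, RPS12 and RPS4X every SLEAR shRNA library was above Control, RPS12 by very little in SLEAR shRNA-3.

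At the other end stood genes of other core ribosomal proteins. RPL13 was listed at 0.477 RPM in Control and at 0.426, 0.930 and 0.623 RPM with SLEAR shRNA, and RPL41, the smallest ribosomal protein, at 0.477, 0.426, 0.266 and 0 RPM. RPS27 was listed at 0.596 RPM in Control and 0.568, 0.665 and 0.415 RPM with SLEAR shRNA. RPS3, which sits where messenger RNA enters the small subunit, had a first row at 0, 1.28, 0.532 and 0 RPM and a second at 0.239, 0, 0.532 and 0 RPM. These values are near the level of 3 reads, although the genes encode core ribosomal proteins. A low listed value is not read here as a low level of the messenger RNA. EEF1A1, an abundant elongation factor with a TOP messenger, was also low, between 0.716 and 2.28 RPM. The sources used here do not say how reads that match several places in the genome were assigned. RPS20 had 5.37 RPM in Control, 8.23 and 6.11 RPM with SLEAR shRNA-1 and -2, and 0 with SLEAR shRNA-3, in its main row.

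Ribosomal protein genes have many processed copies in the human genome, and 20 rows of the table carried the name of such a copy. RPSAP58 had 205 RPM in Control and 188, 174 and 188 RPM with SLEAR shRNA, whereas its parent RPSA, which lies by the messenger RNA exit of the small subunit, had 6.92, 11.1, 10.2 and 0 RPM. That copy was the only 1 of the 20 above its parent in every library. RPL19P12 held 332 RPM in Control against 7073 RPM for RPL19, and RPS14P3 held 125 RPM against 556 RPM for RPS14. RPS18P9 held 60.9 RPM in Control and 148 RPM in SLEAR shRNA-3, against 777 and 1247 RPM for RPS18. Values of RPSA, RPS14, RPL19, RPS18 and other members with such copies are therefore uncertain to the extent that reads were split between copies. Across the 80 genes, the number of RefSeq pseudogenes and the log2 mean level had a Pearson correlation of -0.11 and a Spearman correlation of -0.07, given as a description of genes that share the same 4 libraries.

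Some members were spread over several rows, which are called row 1 and row 2 in order of level. The main row of RPL31 had 761 RPM in Control and 1039, 1093 and 790.2 RPM with SLEAR shRNA, whereas its second row had 43.1 RPM in Control and then 34.6, 29.5 and 28.9 RPM. The main row was higher and the second row lower than Control in every SLEAR shRNA library. RPS3A had 58.1 RPM in Control and 56.5, 73.0 and 73.9 RPM in its main row. Second rows of RPS24, RPS20, RPS3A and RPL28 stayed under 1 RPM in every library. RPL36A had 9.90 RPM in Control and 6.53, 5.98 and 0 RPM in its main row, and 0, 1.28, 0.665 and 0.208 RPM in its second row, while RPL36AL, a separate gene outside the symbol rule, had 3816 RPM in Control and 3914, 4029 and 4165 RPM. A pair of identical member rows was counted once, which left 87 member rows.

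**Figure D2:**
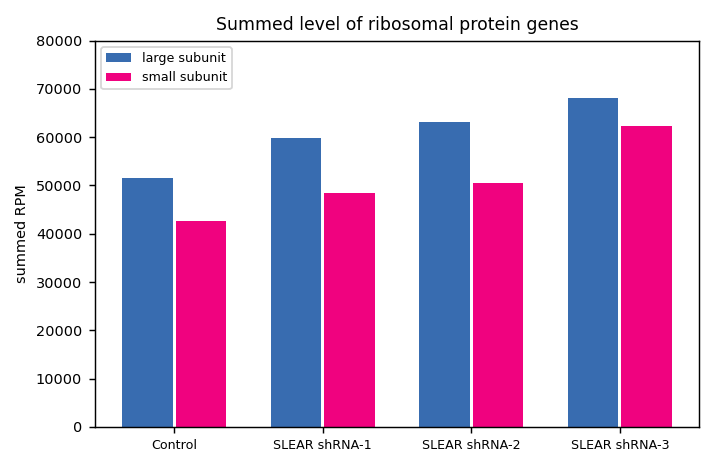
Summed RPM of the large subunit (blue) and small subunit (pink) genes in each of the 4 libraries, without replicates for Control and therefore without error bars. Both sums are lowest in Control and highest in SLEAR shRNA-3, where the small subunit bar comes closest to the large subunit bar.

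Summed over its genes, each subunit took more reads in every SLEAR shRNA library than in Control. The large subunit summed to 51652.5 RPM in Control and to 59907, 63065 and 68107 RPM with SLEAR shRNA-1, -2 and -3, or 1.16, 1.22 and 1.32 times Control. The small subunit summed to 42693 RPM in Control and to 48399.6, 50496 and 62284 RPM, or 1.13, 1.18 and 1.46 times Control. The sum of all rows moved less, to 1.05, 1.03 and 1.04 times Control. The sums are shares of reads, so they can also rise when other transcripts fall. In these bulk libraries, such a fall, more cells of a kind and more messenger RNA per cell cannot be told apart. With 1 library against 3, an exact permutation test over the libraries cannot go below p = 0.25, so these sums carry no test.

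A few high genes weighed on the sums of SLEAR shRNA-3. Without RPS19 and RPS24, picked after their values were seen, the small subunit summed to 31314 RPM in Control and to 37594, 38555 and 40398 RPM, or 1.20, 1.23 and 1.29 times Control. Without RPL37A, picked in the same way, the large subunit stood at 1.21, 1.26 and 1.24 times Control. The ratio of the large to the small subunit was 1.21 in Control, 1.24 and 1.25 in the SLEAR shRNA-1 and -2 libraries, and 1.09 with SLEAR shRNA-3. The ratio was thus within 1.21 to 1.25 in 3 libraries and lower in SLEAR shRNA-3.

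The levels of each row were then compared between the SLEAR shRNA libraries and Control on the log2(RPM + 1) scale with limma, a linear model that pools the spread over all rows, with Benjamini-Hochberg adjustment. Differences on this scale understate the change of low rows. Of the 12350 rows with at least 1 RPM in some library, 0 passed an adjusted p of 0.05 in either direction (0% higher, 0% lower), and without adjustment 92 (0.745%) were higher and 239 (1.94%) were lower at 0.05. A second tool, limma-voom on reads estimated from the RPM steps, also called 0 rows, with 69 higher and 222 lower unadjusted. No member therefore passed the test: among the 77 tested member rows the adjusted p was 0.993 to 0.994, and 3 rows had an unadjusted p under 0.05, all of them higher (RPL5, RPL13A and RPS23). The 10 untested rows were RPL13, RPL41, RPL10L, RPL3L, RPS27 and the second rows of RPL28, RPS3, RPS20, RPS3A and RPS24.

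By position alone, 43 of the 77 tested member rows lay above Control in all 3 SLEAR shRNA libraries, where 17.8% of all tested rows did so, and 7 lay below Control in all 3, where 28.6% did. The large subunit had 23 of 47 higher and 6 lower, and the small subunit 20 of 30 higher and 1 lower. Members are among the higher rows of the table, and the background moves with level. Among rows averaging at least 100 RPM, where 29.8% were higher and 23.2% lower, 37 of 58 member rows were higher (19 of 35 large, 18 of 23 small) and 4 lower. All these comparisons rest on the same single Control library. A row stands on 1 side of Control in all 3 whenever Control is the lowest or highest value, so the 3 libraries are not independent signs.

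The median difference from Control was 0.31 (log2) for the 47 rows of the large and 0.31 for the 30 rows of the small subunit, against -0.11 for all tested rows. By library, the large subunit had medians of 0.16, 0.25 and 0.21 and the small subunit 0.24, 0.31 and 0.39, against -0.02, -0.04 and -0.23 for all rows. Without SLEAR shRNA-3 the medians were 0.18 for the large and 0.27 for the small subunit. The difference between the medians of the subunits, large minus small, averaged -0.10 ± 0.07 (SD, n = 3 libraries), and was -0.011 once rows averaging under 4 on the log2 scale were left out, which is smaller than that spread. Among rows averaging at least 100 RPM, the large subunit had medians of 0.18, 0.24 and 0.40 by library. The small subunit had 0.14, 0.28 and 0.46 there, against 0.08, 0.05 and -0.03 for all rows of that level.

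**Figure D3:**
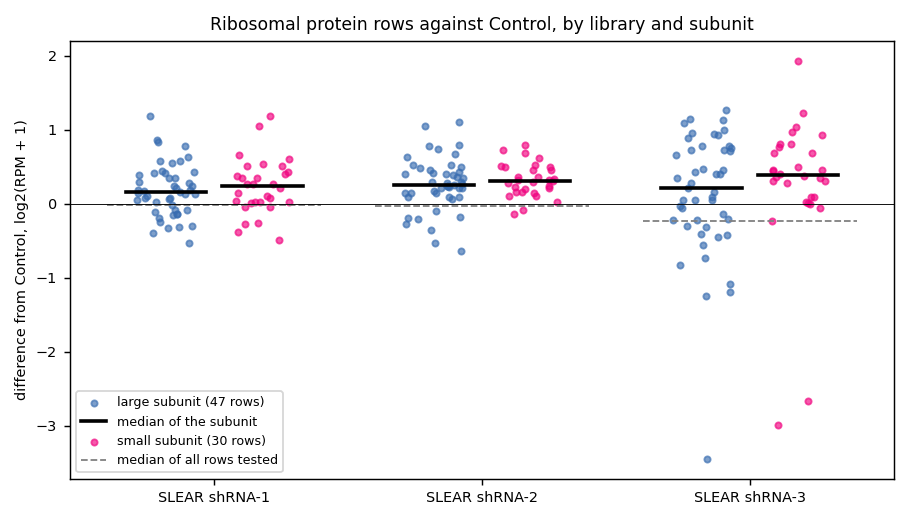
Difference of each tested member row from Control in log2(RPM + 1), by SLEAR shRNA library, for the large (blue, 47 rows) and small (pink, 30 rows) subunit, with black bars for medians and a dashed line for the median of all tested rows. Member medians lie above 0 and above the dashed line in each library, and the points of SLEAR shRNA-3 are the most widely spread, with 3 low points that are rows listed at 0 there.

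RPL5 and RPL11 bind the small 5S ribosomal RNA and, when not built into ribosomes, hold back MDM2, the inhibitor of p53. RPL5 had 1212 RPM in Control, where counting error allowed 1189 to 1236 RPM (95% Poisson interval), and with SLEAR shRNA it had 2079, 2097 and 2298 RPM. The 3 SLEAR shRNA libraries lay close together, with a mean of 2158 ± 122 RPM (SD, n = 3), well away from Control. The log2 difference was 0.83 ± 0.21 (SE, limma, unadjusted p = 0.0138, adjusted p = 0.993). RPL11 had 815 RPM in Control and 855, 976 and 1370 RPM with SLEAR shRNA. It was above Control in each, by little in SLEAR shRNA-1 and most in SLEAR shRNA-3.

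RPL13A, a large subunit protein that also acts in interferon-gamma signalling outside the ribosome, had 668 RPM in Control and 1032, 1061 and 1298 RPM with SLEAR shRNA. Every SLEAR shRNA library exceeded Control, and the log2 difference was 0.75 ± 0.23 (SE, limma, unadjusted p = 0.0256). RPL36 had 736 RPM in Control and 986, 1039.6 and 1219 RPM with SLEAR shRNA (log2 difference 0.55 ± 0.22, SE). RPL8, which lies by the peptidyl transferase center, had 938 RPM in Control and 1223, 1260.3 and 1290.2 RPM (0.42 ± 0.19, SE). RPL3, another protein near that center, had 2608 RPM in Control and 3827, 3729.7 and 3519.8 RPM. For RPL36, RPL8 and RPL3 the groups did not overlap, and RPL8 and RPL3 differed less among the 3 SLEAR shRNA libraries than any of these differed from Control.

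RPS23 lines the decoding center of the small subunit. It had 73.3 RPM in Control, with a counting interval of 67.7 to 79.4 RPM, and 116, 122 and 101 RPM with SLEAR shRNA (log2 difference 0.61 ± 0.22, SE, limma, unadjusted p = 0.0434). RPS18, a protein of the head that contacts the large subunit, had 777 RPM in Control and 990.3, 996 and 1247 RPM (0.46 ± 0.23, SE). RPS21 had 2411 RPM in Control and 3123, 3464 and 3271 RPM (0.45 ± 0.23, SE). Control was the lowest library for all 3 of these genes. RPS9 had 1469 RPM in Control and 1876, 1728 and 2368 RPM with SLEAR shRNA (0.42 ± 0.27, SE). RPS6, the target of the S6 kinases, had 982 RPM in Control and 1009.6, 1142 and 1046 RPM with SLEAR shRNA, all within a narrow range. RPS2, at the messenger RNA entry, had 29.1 RPM in Control and 39.6, 51.2 and 29.5 RPM, with SLEAR shRNA-3 at the Control level. RPS27A, made as a fusion with ubiquitin, had 4.05 RPM in Control and 9.51, 6.11 and 18.3 RPM, from an estimated 34 reads in Control.

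The member rows below Control in all 3 libraries were RPL34, RPL15, RPL26L1, the second row of RPL31, the first rows of RPL28 and RPL36A, and RPS14. RPL34 had 146 RPM in Control and 116, 121 and 87.0 RPM with SLEAR shRNA (log2 difference -0.45 ± 0.27, SE). RPL15, a Diamond-Blackfan anemia gene, had 228 RPM in Control and 206, 213 and 128 RPM. RPS14, whose loss underlies the anemia of the 5q- syndrome, had 556 RPM in Control and 427, 524 and 532 RPM (-0.18 ± 0.22, SE). For RPL15 and RPS14 most of the distance from Control came from 1 library, SLEAR shRNA-3 and SLEAR shRNA-1 respectively. Other tested rows above Control in all 3 libraries included RPL7A, RPL14, RPL18, RPL21, RPL23A, RPL24, RPL29, RPL32, RPL35 and RPL38 in the large and RPS7, RPS10, RPS13, RPS15A, RPS16 and RPS28 in the small subunit, with differences of 0.12 (RPL23A) to 0.76 (RPL21). SLEAR shRNA-1 and -2 lay on different sides of Control in 6 large subunit rows (RPL27, RPL30, RPL10A, RPL7 and RPL37 among them) and 4 small subunit rows (RPS25, RPS15, RPS3A and RPS27L). The second row of RPL31 differed by -0.47 ± 0.29 (SE), and the first row of RPL28 held only 8.93 to 10.6 RPM.

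**Figure D4:**
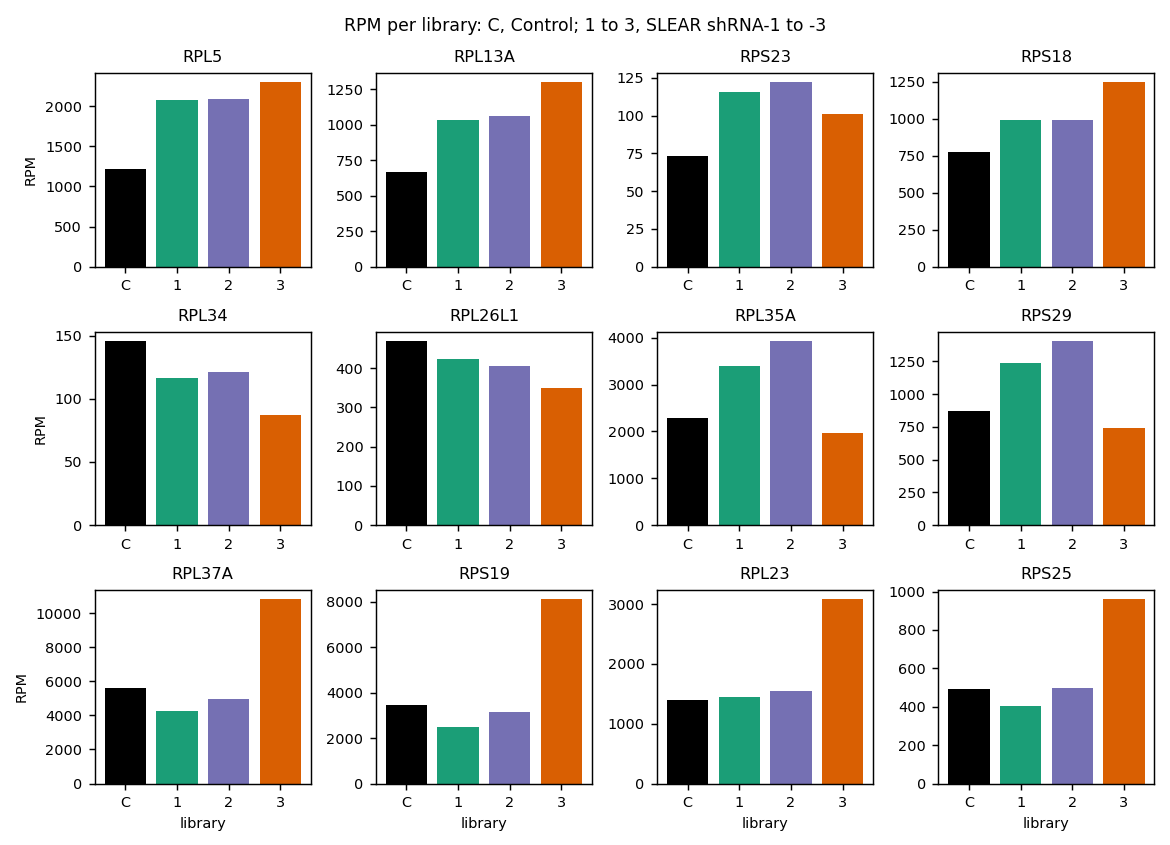
RPM of 12 member genes in Control (C) and SLEAR shRNA-1 to -3 (1 to 3), as bars from 0, each panel with its own axis and without error bars because each bar is 1 library. RPL5, RPL13A, RPS23 and RPS18 are lowest in Control, RPL34 and RPL26L1 highest in Control, and in the remaining panels SLEAR shRNA-3 departs from SLEAR shRNA-1 and -2.

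Grouped by place in the ribosome, no group had a row past the adjusted test. The counts below stand beside 17.8% higher and 28.6% lower among all tested rows, and 29.8% and 23.2% among rows averaging at least 100 RPM, and all share the one Control library. The P stalk, which recruits elongation factors, had 2 of its 4 genes above Control in all 3 libraries. RPLP2 had 520 RPM in Control and 599.8, 681 and 536 RPM with SLEAR shRNA, and RPL12 at the stalk base had 393 RPM in Control and 501, 525 and 676 RPM. RPLP0 had 3555 RPM in Control and 3879, 4007 and 3239 RPM, and RPLP1 had 233 RPM in Control and 315, 325 and 188 RPM. For RPLP0 and RPLP1, SLEAR shRNA-3 was below Control while the other 2 were above it. Around the peptide exit tunnel, 5 of 8 rows were higher in all 3 libraries and 1 was lower. In the head of the small subunit 8 of 14 tested rows were higher and 0 lower, and in its body and platform 12 of 15 were higher and 1, RPS14, was lower. Genes mutated in Diamond-Blackfan anemia had 11 of 18 rows higher and 2 lower. RPL22, recurrently deleted in T cell leukemia, had 205 RPM in Control and 192, 159 and 218 RPM with SLEAR shRNA, so its groups overlapped.

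The paralogs, some of which replace their parent in particular tissues, mostly had low levels. RPL26L1 had 469.7 RPM in Control and 423, 407 and 349.6 RPM with SLEAR shRNA (log2 difference -0.26 ± 0.20, SE). Its parent RPL26 had 2430.3 RPM in Control and 3096, 2872 and 1826 RPM, above Control in 2 libraries and below in SLEAR shRNA-3. RPL39L had 114 RPM in Control and 169.5, 176 and 109 RPM, above its parent RPL39 at 40.8, 54.5, 54.4 and 88.3 RPM in every library. RefSeq names 40 pseudogenes of RPL39 and 0 of RPL39L, and how reads from copies were assigned is not known. The order of these genes is therefore an order of listed values only. RPL7L1 had 13.6, 14.3, 14.5 and 5.40 RPM in that order, where RPL7 had 84.4, 78.0, 102 and 67.5 RPM. RPS27L, a p53-responsive gene, had 2.74 RPM in Control and 2.13, 4.25 and 3.53 RPM. RPL3L, a heart and skeletal muscle paralog, and RPL10L, a testis paralog, were each listed above 0 in 1 library only, at 0.133 and 0.142 RPM, both under the level of 3 reads.

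SLEAR shRNA-3 departed from the other SLEAR shRNA libraries in a way that differed from gene to gene. Among the 58 member rows averaging at least 100 RPM, the ratio of SLEAR shRNA-3 to the mean of SLEAR shRNA-1 and -2 ran from 0.535 for RPL35A to 2.89 for RPS19, with a median of 1.13, against a median of 0.942 for all rows of that level. Between SLEAR shRNA-1 and -2 themselves the largest fold was 1.46 and the median fold 1.07. SLEAR shRNA-3 was at least 1.5-fold above their mean in 13 member rows (7 large, 6 small), where 10.1% of all such rows were, and at least 1.5-fold below in 6 (5 large, 1 small), where 15.9% were. It was the highest of the 4 libraries in 33 of the 58 rows, against 33% of all rows of that level, and the lowest in 11, against 42.2%.

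RPS19, the gene most often mutated in Diamond-Blackfan anemia, had 3471 RPM in Control and 2472, 3147 and 8108 RPM with SLEAR shRNA. RPL37A had 5607 RPM in Control and then 4241, 4941 and 10802 RPM. Both were below Control in 2 libraries and far above it in the third. RPL23, which lies at the interface of the subunits, had 1398 RPM in Control and 1448, 1551 and 3080.5 RPM. RPS25, used by some viral entry sites to recruit the ribosome, had 490.3 RPM in Control and 404, 499 and 959 RPM. In both genes SLEAR shRNA-3 was far above the other libraries, and for RPS25 SLEAR shRNA-1 was below Control. The opposite order was seen in RPL35A, with 2288 RPM in Control and 3396, 3931 and 1961 RPM with SLEAR shRNA, and in RPS29, with 872 RPM in Control and 1237, 1407 and 742 RPM. Both are Diamond-Blackfan anemia genes, as is RPS19.

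**Figure D5:**
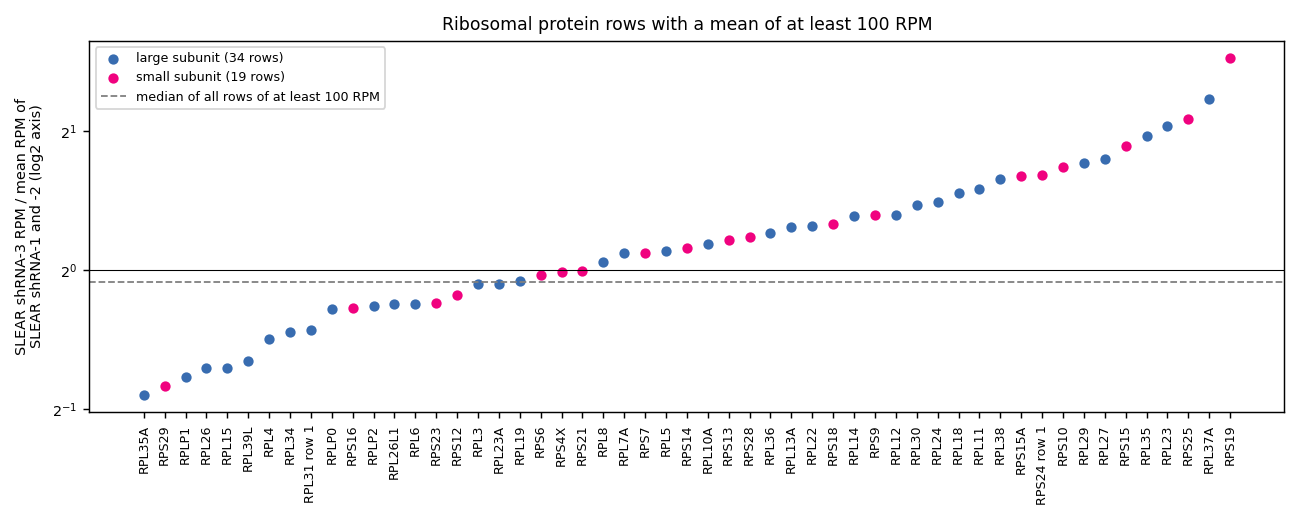
Ratio of the RPM in SLEAR shRNA-3 to the mean RPM of SLEAR shRNA-1 and -2, on a log2 axis, for the named member rows averaging at least 100 RPM, in order of the ratio and coloured by subunit. The ratio runs from 0.535 (RPL35A) to 2.89 (RPS19), and the dashed line marks the median of all rows of that level, 0.942.

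In all, 10 large subunit rows and 4 small subunit rows were above Control in SLEAR shRNA-1 and -2 and at or below it in SLEAR shRNA-3. RPL4, RPL6, RPLP0, RPL35A and RPL26 were the highest of them, and RPL9 (4.89, 9.65, 11.2 and 3.32 RPM) and RPL27A (11.2, 11.3, 13.6 and 4.15 RPM) were among the lowest. The reverse order was seen in RPL37A, RPL22 and RPS19. The base composition of the annotated transcript end, which was not checked to be the end sequenced, was set beside this ratio. The GC percentage of the last 200 bases was compared with the log2 ratio over the 56 rows with a GENCODE transcript. The Pearson correlation was 0.35 and the Spearman correlation 0.34. Over 1418 rows of all genes at that level both were 0.26. These are descriptions over rows of the same 3 libraries, and the part of base composition or of the lower depth of SLEAR shRNA-3 in the differences was not tested.

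A fit that both left out SLEAR shRNA-3 and kept only rows averaging at least 4 on the log2 scale, added after the data were seen, called rows where neither change alone called a member. Without SLEAR shRNA-3 but with all 12350 rows the smallest adjusted p of a member was 0.368 (limma), and with the filter but all libraries it was 0.982. With both, 345 of 4851 rows (7.11%) were called higher and 352 (7.26%) lower at an adjusted p of 0.05. Among the members 15 of 40 large subunit rows and 7 of 25 small subunit rows were called higher, RPL5, RPL13A, RPL3, RPS23, RPS4X and RPS2 among them, and RPL37A and RPS19 lower. RPL35A, RPS29, RPL4, RPL26, RPLP1 and RPL39L were also called higher there and yet lay below Control in SLEAR shRNA-3. RPL37A differed by 0.12 with all libraries and -0.29 in this fit, and RPS19 by 0.20 and -0.32 (log2). The fit sets 2 libraries against 1 and takes its spread from the distance between SLEAR shRNA-1 and -2 alone, pooled over all rows as if it were exactly known, so its p-values are not given and its calls describe these libraries.

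FAU encodes a further ribosomal protein as a fusion with a ubiquitin-like domain. It had 1333 RPM in Control and 1565, 1658 and 1953 RPM with SLEAR shRNA, so Control was the lowest library. GNB2L1, the symbol in the table for RACK1, a scaffold protein on the head of the small subunit, had 4479 RPM in Control and 6666, 6288 and 7628 RPM. Of 19 other genes with TOP messengers, translation factors among them, 9 were above Control in all 3 libraries and 0 below, where 17.8% and 28.6% of all tested rows were, with a median difference of 0.16 (log2). EEF2, the elongation factor that moves the ribosome along, had 756 RPM in Control and 745, 888 and 1242 RPM, so it was above Control in 2 of 3.

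The factors that build ribosomes and the mitochondrial ribosomal proteins had medians nearer to 0 than the cytosolic ribosomal proteins. The counts of both are again read beside 17.8% higher and 28.6% lower among all tested rows. Of 25 assembly factors of the large subunit 9 were higher and 7 lower in all 3 libraries, with a median difference of -0.08 (log2), and of 26 of the small subunit 4 were higher and 5 lower, with a median of -0.01. Of 49 mitochondrial ribosomal rows of the large subunit 13 were higher and 5 lower (median 0.05), and of 26 of the small subunit 6 were higher and 1 lower (median -0.01). The mitochondrial rows were thus seldom below Control in all 3 libraries, as were the cytosolic ones. None of these rows passed the adjusted test, and the difference between these lists and the cytosolic ribosomal proteins was not tested.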

How the data were processed

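The deposited table gives RPM per transcript row, scaled by the authors; FastQC, Bowtie2, SAMtools and the build hg19 are named, without versions, per the submitters' processing notes. The counting rule and the treatment of reads with several matches are not given in the sources used here. Groups came from the sample titles. Identical rows averaging at least 1 RPM were merged (177 rows removed). Rows reaching 1 RPM in any library were fitted on log2(RPM + 1) with limma 3.58.1 (R 4.3.3, trended variance), 3 SLEAR shRNA libraries against 1 Control (2 residual degrees of freedom), with Benjamini-Hochberg adjustment over all rows at 0.05. Library sizes were estimated from the step between low RPM values. Differences are SLEAR shRNA minus Control. GC came from GENCODE 29 transcripts, and promoters and pseudogenes from RefSeq (GRCh38.p14). The members, gene lists and tests were chosen with earlier results of these data known. Genes given in full were the highest, lowest and smallest-p members of each subunit, the P stalk, RPL5, RPL11, RPL22, RPS2, RPS3, RPS6, RPS19, RPSA, the paralogs with their parents, and members in several rows or at 0; RPL23, RPS25, RPL35A, RPS29, RPL15 and RPS27A were named after their values were seen. A few members are not reported here by name or drawn by name in the plots, but count in all sums, counts and medians. Alternatives covered pseudocounts, filters, scaling, voom, array weights, summed rows and omitted libraries.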

Additional observations from a re-analysis of the deposited data

How the results depend on the processing

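No paired analysis was possible because there is 1 Control library, which carries no replicate number of its own. In all, 0 members passed under any alternative that kept all libraries or left out 1 without raising the filter. The median difference of the large subunit (0.31) was 0.26 with a pseudocount of 5, 0.24 without a filter on low values, 0.18 to 0.28 with each SLEAR shRNA library left out in turn, and 0.20 without SLEAR shRNA-3 and with rows averaging at least 4 on the log2 scale, an alternative added after the data were seen. That alternative called 345 rows higher and 352 lower and moved RPL5, RPL13A, RPL36, RPL8, RPL35A, RPS23, RPS18 and RPS21 past the threshold. RPL37A (0.12) and RPS19 (0.20) changed direction: to -0.29 and -0.32 in that alternative, where both were called lower, and to -0.22 and -0.22 with array weights. With each SLEAR shRNA library left out in turn they ranged from -0.29 to 0.38 and from -0.32 to 0.54, negative without SLEAR shRNA-3. Without a filter 1 row was called higher and 376 lower, of which 366 were at 0 in all 3 SLEAR shRNA libraries and 0 were members. Small subunit rows below Control in every library (1) numbered 2 without a filter, 1 to 2 with a library left out, and 2 in the added alternative. The large minus small difference (-0.10) was -0.011 with that filter alone and 0.0032 in the added alternative. Rows above Control in all libraries compared ranged from 20 to 33 (large) and 18 to 24 (small). SLEAR shRNA-3 had both a lower depth and 6941 rows at 0, against 2314 to 2984 in the other libraries. How much of that number goes with depth was not tested. Rows at 0 there are also part of the background over all tested rows. These points, the single Control and the unknown handling of reads from copies limit every comparison.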
